A study of Mus musculus with 108 samples.

Results

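The liver's non-parenchymal cells were represented by 44 genes chosen for what they are known to mark: 13 of Kupffer cells or macrophages, 12 of sinusoidal endothelial cells, 10 of stellate or mesenchymal cells, 4 of biliary cells and 5 of leukocytes or lymphocytes. They are 44 of the 26089 genes with a curated RefSeq transcript on chromosomes 1 to 19 and X, and the rule that chose them uses cell type knowledge and no threshold on a measured value, although earlier results of these data were known when they were chosen. For each gene the chromatin state was read at the transcription start site (TSS), within 2 kb of it and over the gene body, in the livers of C57BL/6 female mice. The SD 3m group was fed a standard diet and was 3 months old (8 mice, 30 ChIP-seq libraries), the SD 12m group was fed the same diet to 12 months (8 mice, 29 libraries), and the CR 12m group received 30% fewer calories to 12 months (9 mice, 29 libraries). The mice carried no transgene or mutation in the labels, and all livers were formalin-fixed and paraffin-embedded. A further group of 6 months was not analysed here. The libraries of each group were merged by the authors, per histone mark, before 1 segmentation was made, so the 3 segmentations have no replicates, no difference between groups was tested, and both later groups were read against the same SD 3m segmentation. The number of reads behind the merged files is unknown. Where 3 values follow each other without a group name, they stand for SD 3m, SD 12m and CR 12m in this order.

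Each bin of 200 bp holds 1 of 8 state labels. States 1 and 2 carry H3K4me3, the mark of promoters, with H3K27ac, and are called TSS states here. States 3, 4 and 5 are enhancer-related and are called enhancer states. The paper describes states 4 and 5 as weak and poised enhancer signatures, although it also labels state 4 an active enhancer. For states 1 to 5 it gives differing combinations of H3K4me3, H3K27ac and H3K4me1, with no H3K27me3. State 6 carries H3K27me3 and is called Polycomb. State 7 carries weak H3K4me3 and, per the paper, minimal H3K27me3, and state 8, called quiescent, carries none of the 4 marks. Over the genome, TSS states covered at most 1.13% of bins each, Polycomb covered 9.48%, 14.4% and 10.3% and state 7 covered 1.89%, 11.4% and 4.15% of bins in SD 3m, SD 12m and CR 12m.

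Hepatocytes make up most of the liver's mass, and the cells that line its blood channels, patrol them, store vitamin A or form the bile ducts are minorities between them. Kupffer cells are the resident macrophages of the sinusoids, fenestrated endothelial cells form the sinusoid wall, stellate cells hold retinoids and can become collagen-producing myofibroblasts, and biliary cells line the ducts. A gene used only in a minority of cells may carry active marks in those cells and H3K27me3 or no mark in the hepatocytes around them. In these whole-liver samples, fewer cells of a type and less signal per cell cannot be told apart, and a state says which marks were found, not whether a gene was transcribed.

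The 250 bases before the TSS are shown for 6 of the genes because they span the base composition and the states that the following results turn on. They are RefSeq sequences of GRCm38.p6, the assembly that mm10 represents, written in the direction of transcription with every CG in capitals. Of the 44 genes, 32 were found in the RefSeq promoter table, and their promoters there equalled those read from the genome. The other 12 are Adgre1, Csf1r, C1qa, Spi1, Lyve1, Pecam1, Cdh5, Gata4, Pdgfrb, Dcn, Lum and Sox9. Clec4f (chr6:83656117-83656366, minus strand) has 0 CG and lay in Polycomb in every group, C1qc (chr4:136892915-136893164, minus strand) has 2 and lay in Polycomb as well, and Fcgr2b (chr1:170976072-170976321, minus strand) has 5 and lay in TSS states at both ages on the standard diet. Kdr (chr5:75978456-75978705, minus strand) has 16, Ngfr (chr11:95587699-95587948, minus strand) has 16 and Cftr (chr6:18170437-18170686, plus strand) has 30, and none of these CG-dense promoters had its TSS bin in a TSS state in any group.
Clec4f: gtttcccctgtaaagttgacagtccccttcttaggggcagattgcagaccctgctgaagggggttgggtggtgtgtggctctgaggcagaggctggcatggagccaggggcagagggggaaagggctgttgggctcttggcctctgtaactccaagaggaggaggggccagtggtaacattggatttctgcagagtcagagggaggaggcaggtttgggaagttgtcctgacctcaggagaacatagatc
C1qc: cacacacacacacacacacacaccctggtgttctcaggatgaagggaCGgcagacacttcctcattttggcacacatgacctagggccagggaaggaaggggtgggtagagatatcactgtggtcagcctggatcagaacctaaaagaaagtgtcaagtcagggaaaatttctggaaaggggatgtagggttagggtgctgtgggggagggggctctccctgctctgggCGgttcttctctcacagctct
Fcgr2b: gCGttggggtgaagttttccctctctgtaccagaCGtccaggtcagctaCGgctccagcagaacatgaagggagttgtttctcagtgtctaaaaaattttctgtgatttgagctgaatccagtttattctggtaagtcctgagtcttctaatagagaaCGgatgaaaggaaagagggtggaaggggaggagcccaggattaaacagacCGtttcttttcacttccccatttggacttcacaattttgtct
Kdr: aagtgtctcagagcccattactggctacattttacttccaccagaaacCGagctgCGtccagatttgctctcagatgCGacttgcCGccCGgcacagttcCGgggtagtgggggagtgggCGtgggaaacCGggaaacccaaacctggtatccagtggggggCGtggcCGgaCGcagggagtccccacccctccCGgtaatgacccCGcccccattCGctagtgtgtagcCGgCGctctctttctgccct
Ngfr: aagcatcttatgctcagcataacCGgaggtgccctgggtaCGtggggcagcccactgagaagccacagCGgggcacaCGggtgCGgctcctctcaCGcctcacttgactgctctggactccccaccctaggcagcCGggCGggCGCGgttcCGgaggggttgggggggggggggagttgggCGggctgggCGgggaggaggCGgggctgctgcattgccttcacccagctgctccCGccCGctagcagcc
Cftr: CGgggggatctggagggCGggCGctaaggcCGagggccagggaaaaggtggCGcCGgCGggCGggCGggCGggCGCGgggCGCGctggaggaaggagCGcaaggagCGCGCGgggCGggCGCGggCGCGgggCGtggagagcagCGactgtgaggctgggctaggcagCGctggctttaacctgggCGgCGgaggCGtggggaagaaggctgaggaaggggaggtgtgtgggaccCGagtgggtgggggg

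At the TSS itself, the non-parenchymal genes were rarely in TSS states. In SD 3m these states held the TSS bin of 4 genes (9.09%, Wilson 95% interval 3.59 to 21.2%), namely Pecam1, Fcgr2b, Gata4 and Dcn, against 40.1% of all genes. They held 4 in SD 12m (Stab1, Cdh5, Fcgr2b and Gata4) against 34.7% of all genes, and 2 in CR 12m (Gata4 and Sox9) against 30.7%. Such intervals count genes, which are not independent samples of mice, and cover counting error only. Gata4, which encodes a transcription factor of endothelial and mesenchymal cells, was the only gene of the 44 with its TSS bin in state 1 in all 3 groups.

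The most frequent class among them was the enhancer states. Enhancer states held the TSS bin of 16, 16 and 17 genes (36.4% in SD 3m, interval 23.8 to 51.1%), beside 18.2%, 23.6% and 28.2% of all genes. State 5, the poised state among them, held 5, 2 and 0, beside 6.35%, 1.86% and 1.76% of all genes. State 7 held 7, 4 and 0 genes, beside 1.64%, 3.84% and 1.43% of all genes. The 7 in SD 3m were Cd5l, Kdr, Flt4, Hand2, Lum, Sox9 and Cftr. Quiescent chromatin held 10, 6 and 11 genes, beside 29.1%, 22.9% and 27.5% of all genes. Polycomb held 7, 14 and 14 (interval 7.93 to 29.4% in SD 3m), beside 11.0%, 14.9% and 12.2% of all genes. Of the 44 genes, 14 had the TSS bin in states 1 to 5 in every group, beside 54.7% of all genes.

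**Figure D1:**
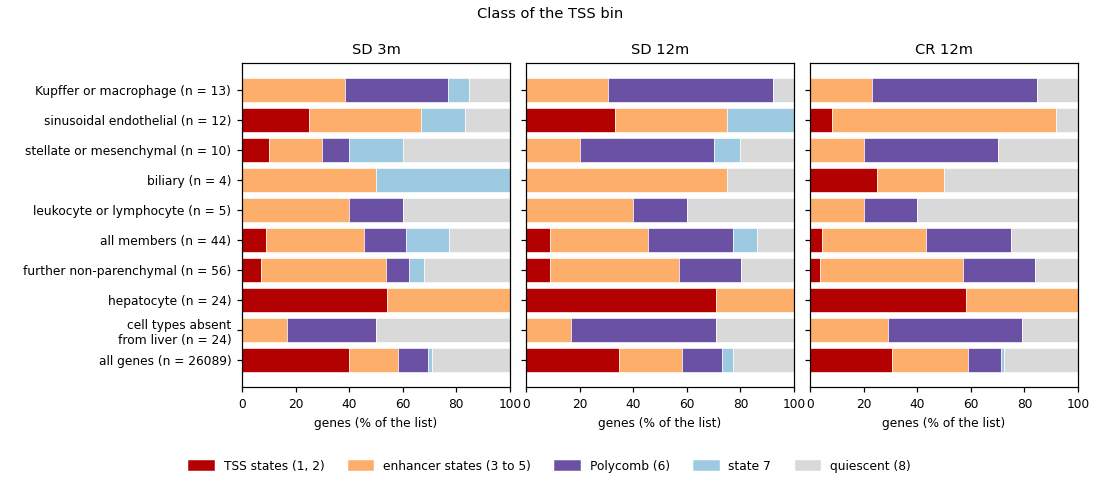
Class of the TSS bin in each gene list, as the percent of the list's genes (horizontal axis), with 1 panel per group and the number of genes in parentheses. The 24 hepatocyte genes hold only TSS and enhancer states, the 24 genes of cell types absent from liver hold no TSS state, and the shares of the 44 non-parenchymal genes in TSS states and in Polycomb lie between theirs.

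Lists of hepatocyte genes and of genes of cell types that the liver lacks were counted by the same rules, and in TSS states and in Polycomb the shares of the non-parenchymal genes lay between theirs in each group. Other classes did not follow that order: in state 7 both lists held 0 genes in every group, and enhancer states in SD 12m held 16 of the 44 non-parenchymal, 7 of the 24 hepatocyte and 4 of the 24 absent-tissue genes. All 24 hepatocyte genes, such as albumin and the fibrinogens, had the TSS bin in states 1 to 5 in each group, 13, 17 and 14 of them in TSS states in SD 3m, SD 12m and CR 12m. Of the 24 genes of neurons, muscle, lung, kidney, skin and other tissues, 0 had the TSS bin in a TSS state in any group, and 8, 13 and 12 were in Polycomb. Within 2 kb of the TSS, at least 1 bin in a TSS state was found at 22, 23 and 23 of the hepatocyte genes and at 0 of the 24 absent-tissue genes in every group. Among the non-parenchymal genes the numbers were 17, 11 and 6, beside 47.8%, 44% and 41.7% of all genes. The lists were written with earlier results of these data known, and their counts are descriptions.

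TSS states lay mostly downstream of the annotated start. In SD 3m all 17 of these genes had a TSS-state bin within the 2 kb after the TSS bin and 4 had 1 in the 2 kb before it (Kdr, Fcgr2b, Gata4 and Dcn), beside 45.8% and 39.6% of all genes. The Kupffer gene Cd68 had 10 of 10 downstream bins in state 2 and 0 upstream, the endothelial gene Tek 9 downstream and 0 upstream, and the leukocyte gene Ptprc 10 downstream and 0 upstream. Each of these 3 had its TSS bin in an enhancer state. For Ptprc the curated transcript that starts furthest downstream begins 179 bp further on, and the bin there was in state 2, 1 and 8 in SD 3m, SD 12m and CR 12m.

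**Figure D2:**
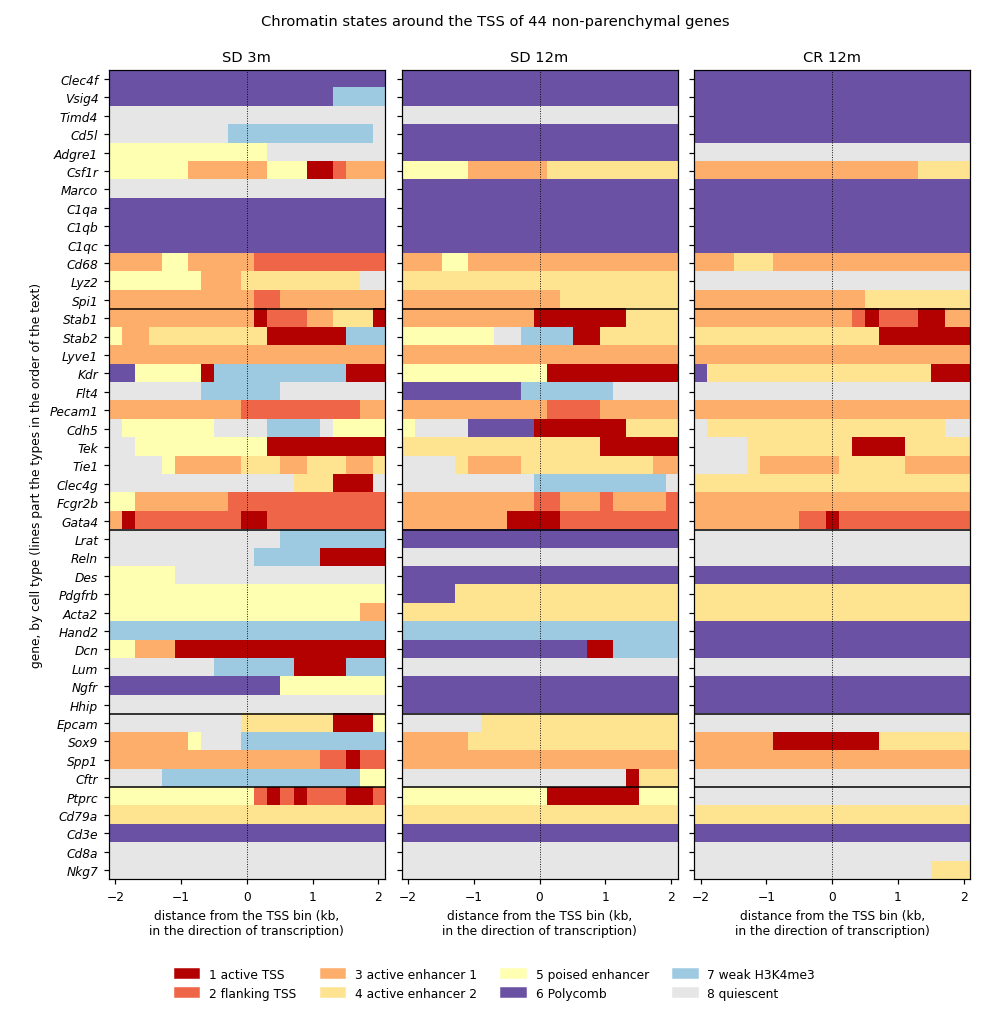
States of the 21 bins around the TSS of each of the 44 genes (rows, in the cell type order of the text), against distance from the TSS bin in kb in the direction of transcription, with 1 panel per group. TSS states (red) lie mostly to the right of the dotted TSS line in SD 3m (4 genes also have them to its left) and are seen at 17, 11 and 6 genes in SD 3m, SD 12m and CR 12m, while whole rows of Polycomb (violet) number 5, 13 and 14.

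Promoter base composition differed between the types. A promoter, taken as 250 bases before to 50 after the TSS, was called CpG-rich with an observed/expected CpG ratio of at least 0.6 and at least 50% G and C. Of the 44 genes 10 were CpG-rich (22.7%, interval 12.8 to 37.0%), beside 41.5% of all genes: Kdr, Flt4, Gata4, Lrat, Reln, Hand2, Ngfr, Hhip, Sox9 and Cftr. Of the 13 Kupffer or macrophage genes and of the 5 leukocyte genes 0 were CpG-rich, against 5 of 10 stellate or mesenchymal genes.

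Most CpG-rich non-parenchymal promoters lay outside TSS states. In SD 3m the TSS bin of 1 of the 10, Gata4, was in a TSS state, beside 71.6% of all genes with a CpG-rich promoter. State 7 held 5 of them (Kdr, Flt4, Hand2, Sox9 and Cftr), beside 1.82% of all such genes, and quiescent chromatin held 3 (Lrat, Reln and Hhip), beside 8.40%. Polycomb held 1, Ngfr, beside 7.84%, and enhancer states held 0, beside 10.4%. Among the 34 genes without a CpG-rich promoter, 3 were in TSS states, 16 in enhancer states, 6 in Polycomb, 2 in state 7 and 7 in quiescent chromatin, beside 17.7%, 23.7%, 13.3%, 1.51% and 43.8% of all genes of that kind. With an observed/expected ratio of at least 0.75, 5 of the 44 genes were CpG-rich (11.4%).

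**Figure D3:**
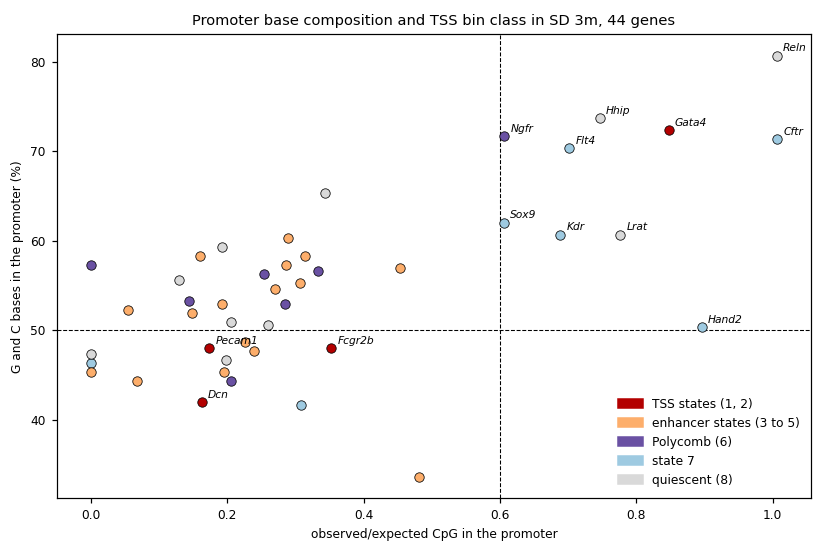
Observed/expected CpG (horizontal axis) and percent of G and C bases (vertical axis) in the promoters of the 44 genes, 1 point per gene, coloured by the class of the TSS bin in SD 3m. Dashed lines mark the limits of 0.6 and 50%, and of the 10 named genes beyond both only Gata4 is in a TSS state.

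The sequence GAGGAAGT, a core recognised by the macrophage factor PU.1, was searched on both strands of these promoters. It was found at 2 of the 44 genes, C1qc and Spp1, beside 3.10% of all genes, and at 1 of the 13 Kupffer or macrophage genes. In the C1qc promoter printed earlier it stands on the opposite strand, as ACTTCCTC after the first CG. The letters alone do not mark a bound site.

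Most Kupffer cell and macrophage genes had the TSS bin in Polycomb or in enhancer states. In SD 3m, 5 of the 13 had the TSS bin in Polycomb, 5 in enhancer states, 1 in state 7 and 2 in quiescent chromatin, and 0 were in TSS states in any group. In SD 12m the Polycomb number was 8 with 4 in enhancer states, and in CR 12m it was 8 with 3 in enhancer states. Of all genes, 11.0%, 14.9% and 12.2% were in Polycomb, 18.2%, 23.6% and 28.2% in enhancer states and 40.1%, 34.7% and 30.7% in TSS states. C1qa, C1qb and C1qc are counted singly here but share 1 Polycomb stretch in each group. A list of 56 further genes of the same cell types, none of them among the 44, was written from textbook knowledge and counted in the same way. Of its 12 Kupffer or macrophage genes, 1, 1 and 3 were in Polycomb and 7, 7 and 7 in enhancer states. Clec4f, a lectin receptor of Kupffer cells, Vsig4, a receptor for complement fragments, and C1qa, C1qb and C1qc, which encode the chains of the first complement component, were in state 6 in all 3 groups.

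The C1q genes lie side by side (C1qb at chr4:136880126-136886200, C1qc at chr4:136889802-136892914 and C1qa at chr4:136895916-136898844, all on the minus strand). A single unbroken Polycomb stretch covered them in each group, 94.2 kb long in SD 3m (chr4:136834801-136929000), 129.8 kb in SD 12m and 282.2 kb after caloric restriction. The stretch also held the TSS of Ephb2, an ephrin receptor gene, in each group, and that of Epha8, another, in CR 12m. No bin over the cluster and the 20 kb around it was in any other state in any group.

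Clec4f stood in a Polycomb stretch of 31.8, 136 and 106 kb, and its whole body was Polycomb each time. In both groups of 12 months the stretch also reached the TSS of Cd207, a lectin gene, Vax2 and Vax2os. Vsig4, on the X chromosome, had 11.2%, 40.1% and 35.3% of its body in Polycomb in SD 3m, SD 12m and CR 12m.

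The other Kupffer genes with the TSS bin in Polycomb in a group of 12 months did not have it there at 3 months. Cd5l, a scavenger receptor-like protein of macrophages, had its TSS bin in state 7 in SD 3m, with 17.9% of the body in enhancer states, and its body was 100% Polycomb in SD 12m and CR 12m. Marco, a scavenger receptor, went from state 8 to 6 and 6, and its body from 20.1% Polycomb to 100% and 52.6%. Timd4, a receptor for phosphatidylserine, was in state 8, 8 and 6. Adgre1, which encodes F4/80, was in state 5 in SD 3m, with 12 of 21 window bins in enhancer states, in Polycomb in SD 12m (21 of 21 bins) and in quiescent chromatin in CR 12m (21 of 21 bins).

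Of the 5 Kupffer or macrophage genes in enhancer states in SD 3m, Adgre1 among them, 3 kept that class in all groups. Csf1r, the receptor for the growth factor that macrophages need, Spi1, which encodes PU.1, and Cd68, a lysosomal protein of macrophages, had the TSS bin in state 3 in all 3 groups. Lyz2, the macrophage lysozyme, was in state 4 in SD 3m and SD 12m and in state 8 in CR 12m, where its body was 100% quiescent against 36.0% enhancer in SD 3m. Around the TSS of Csf1r 3 bins were in TSS states in SD 3m, around that of Spi1 2 and around that of Cd68 10, and in SD 12m and CR 12m each had 0 of 21. The body of Cd68 was 90.0% TSS states in SD 3m and 100% enhancer states in both later groups. The most downstream TSS of Spi1, 14.3 kb from the start used here, was in state 1 in SD 3m and in state 4 in SD 12m and CR 12m.

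Most sinusoidal endothelial genes had the TSS bin in TSS or enhancer states. So did most of all genes, 54.7% of which had it in states 1 to 5 in every group. Of the 12, 3 had it in TSS states and 5 in enhancer states in SD 3m, beside 40.1% and 18.2% of all genes. These numbers were 4 and 5 in SD 12m, beside 34.7% and 23.6%. After caloric restriction they were 1 and 10, beside 30.7% and 28.2%. In Polycomb 0 of the 12 had it in any group, beside 11.0%, 14.9% and 12.2% of all genes. Of the 12 further endothelial genes 1, 3 and 3 had it in Polycomb. A TSS-state bin was found within 2 kb of 8, 8 and 5 genes, beside 47.8%, 44% and 41.7% of all genes. In each group 8 of the 12 gene bodies were over 50% enhancer states, beside 39.8%, 45.0% and 46.4% of all genes.

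Lyve1, a hyaluronan receptor, was uniform: its TSS lay in an unbroken stretch of state 3 of 24.2, 26.2 and 28.8 kb in SD 3m, SD 12m and CR 12m, and its body was 100% enhancer in each. Pecam1, an adhesion molecule of endothelial junctions, was in state 2, 3 and 3, with 9, 4 and 0 of 21 window bins in TSS states. Fcgr2b, an inhibitory Fc receptor of these cells, was in state 2, 2 and 3, with 12, 4 and 0 bins. In both genes the bins in TSS states gave way to state 3, and the bodies reached 100% enhancer in CR 12m from 96.1% and 81.0% in SD 3m.

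Stab1 and Stab2, scavenger receptors that clear hyaluronan and modified proteins, kept TSS-state bins in every group. Stab1 was in state 3, 1 and 3 at its TSS bin, with 5, 7 and 7 window bins in TSS states, and its body was 58.4%, 69.8% and 95.3% enhancer. Stab2 was in state 4, 7 and 4, with 6, 2 and 7 such bins, and its body was 73.6%, 76.5% and 90.9% enhancer. Nt5dc2 and Gm52148 overlap the body of Stab1, and Gm16271 lies within Stab2, so that states there are shared with those genes.

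The growth factor receptors of the endothelium differed. Kdr, the main receptor for the vascular growth factor VEGF-A, was in state 7, 5 and 4 at its TSS, with 4, 10 and 3 window bins in TSS states, and its body was 92.1%, 93.4% and 96.1% enhancer. Flt4, the receptor of lymphatic growth factors, was in state 7, 7 and 8, had 0 TSS-state bins in any group and was 75.9%, 65.7% and 73.1% quiescent over its body. Tek and Tie1, the receptors of the angiopoietin pathway, were in state 5, 4 and 4 and in state 4, 4 and 3, and Tek had 9, 6 and 4 window bins in TSS states against 0 for Tie1 in every group.

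Cdh5 and Clec4g had a TSS bin that differed in each group. Cdh5, the cadherin of endothelial junctions, was in state 8, 1 and 4, and SD 12m alone had TSS-state bins, 7 of 21. Clec4g, a lectin of sinusoidal endothelium, was in state 8, 7 and 4, and its body was 54.2%, 37.5% and 100% enhancer. Gm29682 overlaps Cdh5. Gata4, a gene of endothelial and stellate cells that cannot be assigned to 1 type, had 20, 13 and 13 of 21 bins in TSS states and 18.5%, 11.6% and 6.01% of its body in them.

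Of the 10 stellate or mesenchymal genes, 1 had the TSS bin in TSS states, 2 in enhancer states, 1 in Polycomb, 2 in state 7 and 4 in quiescent chromatin in SD 3m. The shares of all genes in these classes were 40.1%, 18.2%, 11.0%, 1.64% and 29.1%. At 12 months Polycomb held 5 on the standard diet (Lrat, Des, Dcn, Ngfr and Hhip) and 5 in CR 12m (Des, Hand2, Dcn, Ngfr and Hhip), beside 14.9% and 12.2% of all genes. The 12 further stellate or mesenchymal genes had 1, 4 and 4 in Polycomb, the 8 further biliary genes 0, 2 and 1, and the 12 further leukocyte genes 2, 3 and 4. Of the 10 bodies, 4, 0 and 1 were over 50% enhancer, the last being Acta2, beside 39.8%, 45.0% and 46.4% of all genes.

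Dcn and Lum are neighbours on chromosome 10 and encode the collagen-binding proteoglycans decorin and lumican. Their locus lost nearly all of the TSS and enhancer states it held in SD 3m. Much of the enhancer share in SD 3m was state 5, the poised state, which ran from 6.4 to 40 kb after the start of the Dcn TSS bin. Over the genome state 5 covered 5.40%, 2.70% and 2.39% of bins. Dcn (chr10:97479500-97518163, plus strand) was in state 1 in SD 3m, in a stretch of 6 kb, with 16 of 21 window bins in TSS states, and in state 6 in both later groups, with 2 and 0 such bins. Its body was 84.5% enhancer and 15.5% TSS states in SD 3m, 6.70% enhancer, 33.5% state 7 and 56.7% quiescent in SD 12m. With caloric restriction it was 13.4% Polycomb and 86.6% quiescent. The most downstream TSS of Dcn, 2831 bp further on, was in state 1, 7 and 6. Lum (chr10:97565501-97572703, plus strand), 47.3 kb away, was in state 7 in SD 3m with 18.9% of its body in TSS states and 35.1% in enhancer states, and was 100% quiescent in both later groups. Over the 133.2 kb that hold both genes, enhancer states covered 41.6%, 3.60% and 0% of bins, TSS states 6.31%, 0.300% and 0%, and quiescent chromatin 48.8%, 73.7% and 93.4%.

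**Figure D4:**
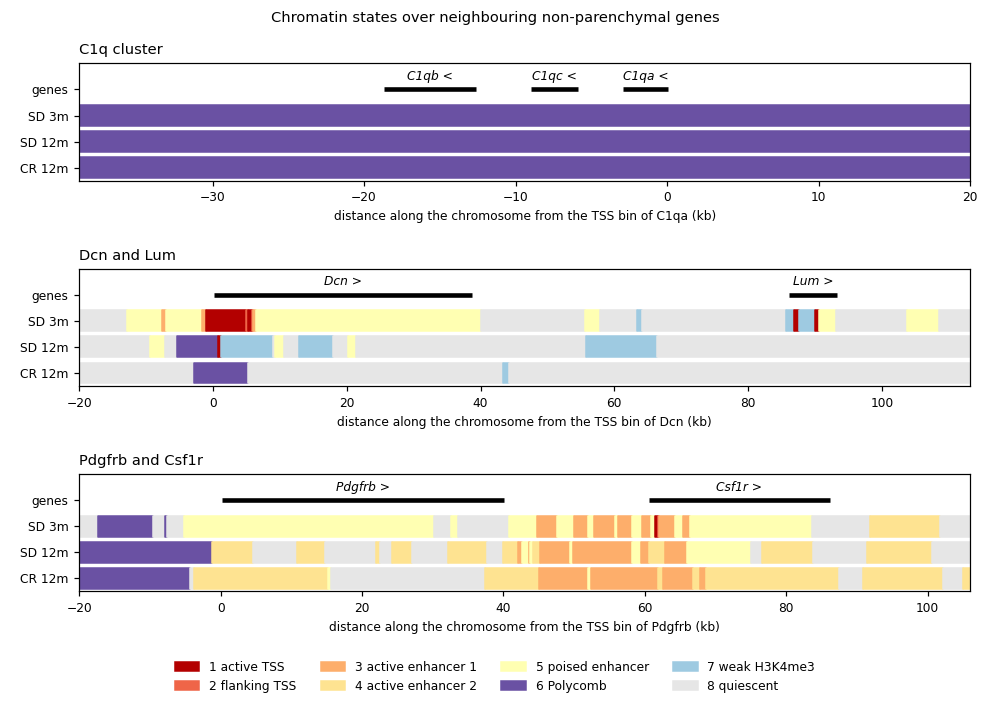
States along 3 loci that hold neighbouring non-parenchymal genes, with 1 track per group, gene bodies as black bars (an arrow gives the direction of transcription), and distance along the chromosome in kb from the TSS bin of C1qa, Dcn or Pdgfrb. The C1q genes are Polycomb throughout, Dcn and Lum lose nearly all of their TSS and enhancer states (red to yellow) in SD 12m and CR 12m, and Csf1r keeps enhancer states in all groups.

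Pdgfrb, the receptor for the growth factor that drives stellate cell proliferation, lies 20.5 kb from Csf1r on chromosome 18. It was in state 5 in SD 3m, in an unbroken stretch of 35.4 kb, and in state 4 in SD 12m and CR 12m, and 77.6%, 43.8% and 45.8% of its body was enhancer. Enhancer states covered 87.6%, 84.5% and 100% of the body of Csf1r. Acta2, the smooth muscle actin of myofibroblasts, followed Pdgfrb in state, with 5, 4 and 4 at the TSS and 92.1%, 46.1% and 59.2% of the body in enhancer states.

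Des, which encodes the intermediate filament desmin, had 54.8% of its body in enhancer states in SD 3m, with a quiescent TSS bin, and was 100% Polycomb in SD 12m and CR 12m in stretches of 29 and 23.4 kb. Ngfr, a neurotrophin receptor of stellate cells, had its TSS bin in Polycomb in all 3 groups, with 38.9% of the body in enhancer states and 46.3% in Polycomb in SD 3m and 100% in Polycomb in both later groups. The stretch at Ngfr was 6.4, 69.6 and 109.2 kb long. Hhip, an inhibitor of Hedgehog signalling, was in state 8, 6 and 6, and 4.33%, 77.1% and 53.9% of its body was Polycomb.

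The remaining mesenchymal genes had no enhancer state at the TSS in any group. Lrat, the enzyme that esterifies retinol for storage, was in state 8, 6 and 8 at the TSS, with 58.6%, 100% and 0% of its body in Polycomb. Rbm46os overlaps Lrat. Hand2, a transcription factor of the mesenchyme, was in state 7 over 21 of 21 window bins in SD 3m and SD 12m and in Polycomb over 21 of 21 in CR 12m, and the antisense gene Hand2os1 starts 124 bp from it. Reln, a secreted protein of stellate cells, was in state 8 in all 3 groups, with 5 window bins in TSS states in SD 3m and 22.5% of its body in enhancer states, against 0 bins in both later groups and 2.26% and 0% of the body.

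Of the 4 biliary genes, 2 were in enhancer states and 2 in state 7 in SD 3m, beside 18.2% and 1.64% of all genes. Spp1, which encodes osteopontin and is expressed by several cell types, was in state 3 in all 3 groups, with TSS states over 41.9% of its body in SD 3m and 100% enhancer in SD 12m and CR 12m. Sox9, the transcription factor of bile duct cells, was in state 7, 4 and 1, with 0, 0 and 8 of 21 window bins in TSS states. Sox9 was the only gene of the 44 in which TSS-state bins absent in SD 3m were present in CR 12m. Epcam, an epithelial adhesion molecule, was in state 4, 4 and 8, and Cftr, the chloride channel of the duct, in state 7, 8 and 8.

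Among the leukocyte and lymphocyte genes, Cd79a, a chain of the B cell receptor complex, was in state 4 with a body 100% enhancer in all 3 groups. Cd3e, a chain of the T cell receptor complex, was in state 6 with a body 100% Polycomb in all 3. Cd8a, a T cell coreceptor, and Nkg7, a granule protein of cytotoxic cells, were in state 8 in all 3. Ptprc, which encodes the pan-leukocyte antigen CD45, was in state 5, 5 and 8, and had 10, 7 and 0 of 21 window bins in TSS states. Enhancer states covered 44.8%, 43.9% and 9.06% of its body, and Polycomb 34.8%, 54.9% and 40.9%.

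**Figure D5:**
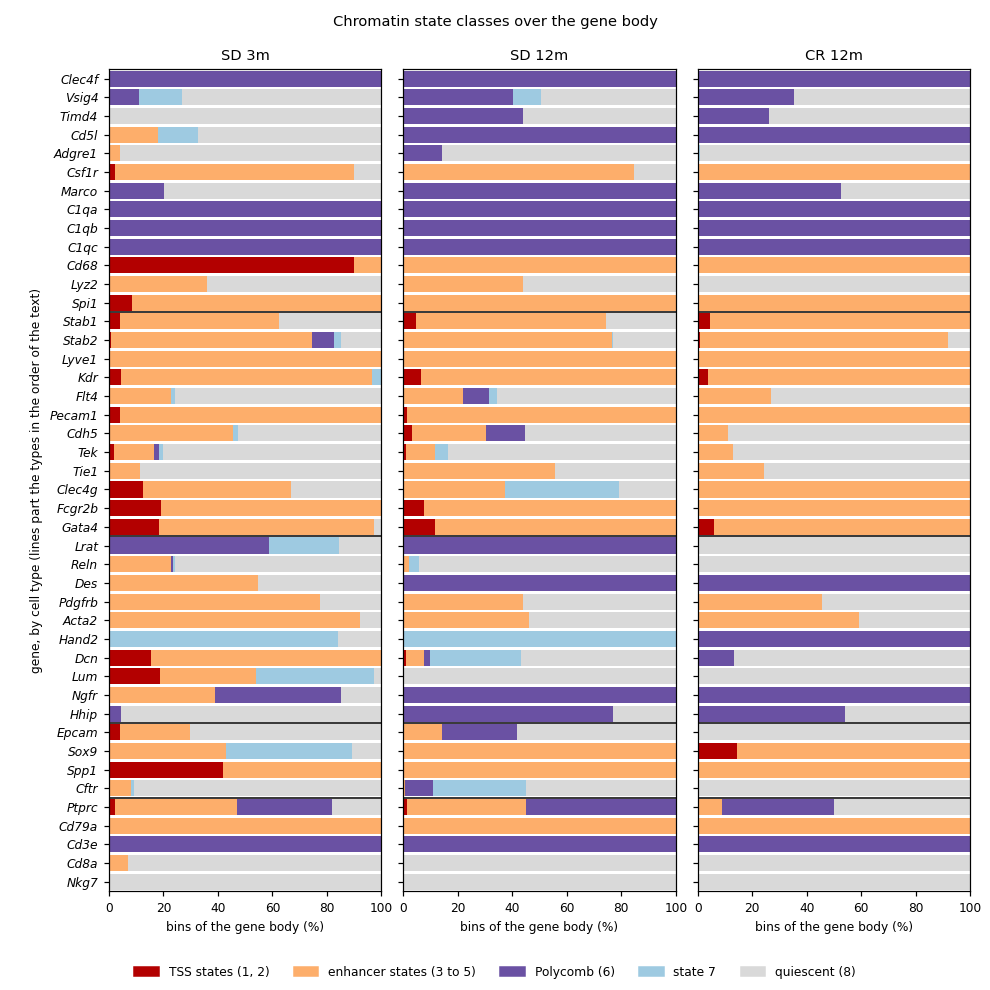
Percent of gene body bins in each class (horizontal axis) for the 44 genes (rows, in the cell type order of the text), with 1 panel per group. The endothelial rows from Stab1 to Gata4 hold no body over 50% Polycomb, and the bodies of Cd5l, Des and Ngfr turn to 100% Polycomb in SD 12m and CR 12m.

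Over the gene bodies, 16, 14 and 15 of the 44 were over 50% enhancer, beside 39.8%, 45.0% and 46.4% of all genes. Bodies over 50% Polycomb numbered 6, 12 and 11, beside 9.47%, 11.9% and 9.56% of all genes. The median share of a body in enhancer states was 30.6%, 12.4% and 0%, beside 27.5%, 35.4% and 39.3% over all genes. How far the 3 groups lie apart depends on the measure, while their order was the same with the alternatives given here. With every bin counted alike, enhancer states covered 35.1%, 27% and 26.0% of the bodies of the non-parenchymal genes, beside 34.7%, 35.5% and 36.5% over all genes. The median in SD 12m was 19.0% with 10 kb added on each side of the body and 6.87% without its first 2 kb, and that in CR 12m was 10.9% with the added 10 kb.

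The TSS bin state differed from SD 3m at 19 of the 44 genes in SD 12m (43.2%, interval 29.7 to 57.8%) and at 24 after caloric restriction (54.5%, interval 40.1 to 68.3%), beside 32.6% and 34.7% of all genes. With states merged into 5 classes (TSS, enhancer, Polycomb, state 7 and quiescent), 16 and 20 genes differed, beside 23.3% and 25.3%. By cell type the class differed in SD 12m at 3 of 13 Kupffer, 6 of 12 endothelial, 5 of 10 stellate, 2 of 4 biliary and 0 of 5 leukocyte genes. In CR 12m the numbers were 5, 6, 5, 3 and 1. The class was the same in all 3 groups at 21 genes, beside 66.5% of all genes.

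Genes entered Polycomb at 12 months, and 0 of the 7 that were in it in SD 3m left it. The 3 C1q genes among these 7 share 1 Polycomb stretch. Of all 2881 genes in Polycomb in SD 3m, 26.6% had left it by 12 months on the standard diet and 34.3% with caloric restriction. In SD 12m 7 genes entered it (Cd5l, Adgre1, Marco, Lrat, Des, Dcn and Hhip), beside 6.80% of all genes, and in CR 12m 7 did (Timd4, Cd5l, Marco, Des, Hand2, Dcn and Hhip), beside 4.94%. The 7 that were in Polycomb in SD 3m were in it in all 3 groups, beside 6.60% of all genes. Within 2 kb of the TSS at least 1 Polycomb bin was found at 8, 17 and 15 genes, beside 15.7%, 17.7% and 14.8% of all genes. With windows of 5 kb on each side, 13 genes had 1 in SD 3m (29.5%).

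TSS and enhancer states, the poised state 5 among them, were both left and entered. In SD 12m 3 genes left states 1 to 5 (Adgre1, Stab2 and Dcn), beside 2.48% of all genes, and 3 entered them (Kdr, Cdh5 and Sox9), beside 2.60%. In CR 12m 5 left them (Adgre1, Lyz2, Dcn, Epcam and Ptprc), beside 2.70%, and 4 entered them (Kdr, Cdh5, Clec4g and Sox9), beside 3.39%. Of these, Adgre1 and Ptprc left from state 5, and Kdr in SD 12m entered state 5. TSS states within 2 kb were lost at 8 genes in SD 12m, beside 4.35% of all genes, and gained at 2, Cdh5 and Cftr, beside 0.525%. In CR 12m they were lost at 12 genes, beside 6.54%, and gained at 1, Sox9, beside 0.422%. Lost in both later groups were Csf1r, Cd68, Spi1, Clec4g, Reln, Lum, Epcam and Spp1.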

How the data were processed

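Chromatin of formalin-fixed livers was immunoprecipitated for H3K4me3, H3K27me3, H3K27ac and H3K4me1 and sequenced. Per the labels and the study's methods, the authors aligned reads to mm10 with bwa 0.6.2-r126 (samtools 0.1.18 is also listed), discarded reads that were duplicates or mapped poorly, pooled each group's libraries and made a ChromHMM segmentation. The deposited value is a state label from 1 to 8 per bin of 200 bp, not a signal, and it includes the merging, the binarization and the smoothing of the model. Each file was assigned to the group named for it.

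States were read in Python 3.11.15 with numpy 2.4.6 at the TSS of the longest curated RefSeq transcript of GRCm38.p6, in the 21 bins within 2 kb and over the gene body. Functions were tested on simulated labels of 26089 genes, of which 20.5% were changed and 20.5% recovered. No test was made, as each group has 1 segmentation. The genes, the further lists and the alternatives were chosen with earlier results of these data known. Every gene is given by its TSS state, and window and body values are given for genes in TSS states, with a changed class, with a body over 50% enhancer or Polycomb in SD 3m, or beside another of the 44. The alternatives were other TSS, windows, bodies, backgrounds, limits and subsets of genes.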

Additional observations from a re-analysis of the deposited data

How the results depend on the processing

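Of 187 recomputed values, 163 stayed within the Wilson interval of the value and within 1.5 times it, and 24 moved. Of the 187, 35 came from leaving out Vsig4 alone and 17 from leaving out Hand2 alone, which can shift a share of 44 genes only slightly. A count of 0 genes also stays 0 in any subset. Gene-body medians have no binomial interval and were judged by that of a share of the same size over the same number of genes. A further 52 values could not move, since no 2 members overlap and the most upstream TSS of each member is the TSS used. By these limits the TSS bin and change counts did not move with the most downstream TSS, the most frequent class within 1 kb, 5 classes or leaving out Vsig4 on the X chromosome. With the most downstream TSS, however, TSS states held 6 genes in SD 3m (13.6%), which is at the limit of 1.5 times, and 21 genes differed in SD 12m. When the 3 genes of unclear cell type were left out there was 1 exception: without Gata4, Spp1 and Lrat, TSS states held 2.44% of genes in CR 12m. With windows of 5 kb, 29.5% of genes had a Polycomb bin in SD 3m, and with a CpG ratio of at least 0.75, 11.4% were CpG-rich. Counting each bin the same in place of the median over genes gave long genes more weight: Polycomb was then 6.29%, 16.9% and 11.3% and quiescent chromatin 54.7%, 50.3% and 62.2% of body bins in SD 3m, SD 12m and CR 12m, and enhancer states were 27% and 26.0% in the later groups. With 10 kb added on each side of the body, the medians were 19.0% enhancer, 9.80% Polycomb and 17.4% quiescent in SD 12m, and 10.9% enhancer and 15.2% quiescent with caloric restriction. Without the first 2 kb of the body the enhancer median in SD 12m was 6.87%, and without Vsig4 the quiescent median of both later groups was 0%. With protein-coding genes as background, 45.2% were in TSS states, 16.1% in enhancer states and 26.2% in quiescent chromatin in SD 3m, 53.4% had a TSS-state bin within 2 kb in SD 3m, and 35.5% differed in CR 12m. The cause of these moves was not tested beyond how each alternative is built. The most downstream TSS, and leaving out Hand2, whose window holds another TSS, were added after seeing the data. No paired analysis was possible because each group has 1 segmentation. The lack of replicates and the unknown depth limit every comparison between groups.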

Other observations

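A further 56 genes of the same cell types, written from textbook knowledge, were counted in the same way. Their TSS bins were in TSS states at 4, 5 and 2 genes in SD 3m, SD 12m and CR 12m, in enhancer states at 26, 27 and 30, in Polycomb at 5, 13 and 15, in state 7 at 3, 0 and 0 and in quiescent chromatin at 18, 11 and 9. A TSS-state bin lay within 2 kb of the TSS at 14, 11 and 6 of them. The TSS bin entered Polycomb at 8 genes in SD 12m and at 10 in CR 12m, and 0 left it in either. The following genes of this list were named after their values were seen. Col1a2 and Col3a1, fibrillar collagen genes of activated stellate cells, were in state 8, 6 and 6 and in state 7, 6 and 8. Wnt2 and Rspo3, endothelial signals of the central vein, were both in state 8 in SD 3m and in Polycomb in the later groups. Folr2 and Fcna, genes of resident macrophages, were in state 3 with bodies 100% enhancer in all groups.

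The list of cell types absent from liver also held genes in enhancer states. Its TSS bins were in them at 4, 4 and 7 of 24 genes in SD 3m, SD 12m and CR 12m, beside 18.2%, 23.6% and 28.2% of all genes. These counts do not set the list apart from all genes. Scgb1a1, a secretory protein of airway cells, was in state 3 with a body 100% enhancer in all 3 groups, and Sftpc, a surfactant protein of the lung, was in state 4, 4 and 3 with a body 100% enhancer. Both were named after their values were seen, and 0 of the 24 genes had a TSS-state bin within 2 kb in any group.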
